A study of Setaria viridis with 24 samples.

Results

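Expression in the crown was set against expression in the stem of Setaria viridis plants that had been kept under drought and were harvested 9 days after sowing. Every gene listed in the authors' deposited table for that pair of groups entered, which made 19671 of the 20865 genes listed anywhere in the series, and the table rested on 6 of the 24 RNA-seq libraries. Setaria viridis, green foxtail, is a wild C4 relative of foxtail millet. Per the labels, plants grew in a mix of 25% sand and 75% peat, 20 plants went into each library, the crown was the lower and the stem the upper region sampled, and strand-specific libraries were prepared after removal of ribosomal RNA. The groups described are drought crowns and drought stems at day 9, watered crowns and watered stems at day 9, and the same 4 kinds of sample at day 6, with 3 biological repeats in each. The labels name no genotype for any group. They do not say whether the crown and the stem of a repeat were cut from the same plants.

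The crown of a grass is the compact region of nodes at the base of the shoot. It forms the shoot-borne roots that make up most of the root system of an adult grass and the buds from which tillers grow, while the tissue above it carries sheaths and growing leaves. Shoot-borne roots need moist soil at the plant base to grow out, and in many grasses they stay arrested when the surface soil is dry. The study's title names the suppression of these roots during drought as its subject. The comparison asks which transcripts set the region that bears them apart from the region above it, in plants short of water.

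Values are FPKM, read fragments per kilobase of transcript scaled to the size of the library. The authors deposited 1 FPKM value per gene and group, so no value below carries a standard deviation, library values were not used here, and the read depth is unknown. A gene is called different where the authors' adjusted p (q) was under 0.05. Log2 fold changes are given as crown over stem, the reverse of the deposited direction for this pair. The smallest deposited p was 5e-05, with q = 0.00091, and 1324 genes of the drought day 9 table shared it, so these genes cannot be ranked by p. The files pair no identifier with a gene name or a description, and 0 identifiers matched the 34587 genes of the RefSeq table, so genes are given by identifier and position, and the labelled tissues could not be checked against marker genes. In bulk tissue such as this, fewer cells of a type and less RNA per cell cannot be told apart.

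Genes that were high in drought crowns and close to absent from drought stems made up the upper end of the comparison. The rule for named genes took the 8 called genes with the largest log2 fold changes, with both groups above 0 FPKM and at least 13.4 FPKM in the higher group. These 8 genes ran from 42.3 to 219 FPKM in drought crowns, against 0.314 to 0.895 FPKM in drought stems, a separation that the choice by fold change fixes. All 8 had their highest value of the 8 groups in the drought day 9 crown, which the choice also favours. In the other 3 pairs the crown was above the stem for all 8. The difference was called for 5 of them in watered plants of day 9, for 4 under drought at day 6 and for 3 in watered plants of day 6. Some of these calls fell where the stem was listed at 0 FPKM, as for Sevir.5G084900 in each of these pairs. A missing call did not mean a small log2 fold change. Sevir.8G222900 had a log2 fold change of 8.61 in watered plants of day 9 without a call (q = 0.512 in the authors' deposited table).

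The gene at the top was Sevir.4G196200 (chromosome 4, 29280547 to 29282542). It stood at 219 FPKM in drought crowns and 0.544 FPKM in drought stems at day 9, a log2 fold change of 8.65 (q = 0.00472 in the authors' deposited table). It stood at 70.8 FPKM in watered crowns and 0.0785 FPKM in watered stems of the same day. In drought plants of day 6 it stood at 22.9 FPKM in crowns and 0.266 FPKM in stems. The crown value exceeded the stem value in every pair, and in watered plants of day 9 the log2 fold change was larger, at 9.82. None of the other 3 pairs was called (q = 0.542 for watered plants of day 9 in the authors' deposited table). The watered stem of day 9 held the lowest stem value of this gene, and the larger ratio there rests on that value near 0. In FPKM the crown stood further above the stem under drought than in watered plants of day 9.

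Sevir.9G385000 (chromosome 9, 42058969 to 42060788) had a similar pattern of values with a stronger call. Unlike Sevir.4G196200, it was called higher in the crown in every other pair too. It stood at 115 FPKM in drought crowns and 0.561 FPKM in drought stems, a log2 fold change of 7.67 (q = 0.00091 in the authors' deposited table). Watered crowns held 37.7 FPKM and watered stems 0.401 FPKM. It was the gene among the 8 with the highest crown value at day 6, at 44.9 FPKM in drought crowns against 0.762 FPKM in drought stems.

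Others of the 8 were mainly transcripts of the older drought crown. Sevir.7G229300 (chromosome 7, 27621664 to 27622457) stood at 43.3 FPKM in drought crowns and 0.321 FPKM in drought stems at day 9, a log2 fold change of 7.08 (q = 0.0251 in the authors' deposited table). It stood at 4.77 FPKM in watered crowns and was listed at 0 in watered stems of day 9, and the drought crown of day 6 held 0.677 FPKM. Sevir.1G265200 (chromosome 1, 32784111 to 32785833) stood at 42.3 FPKM in drought crowns and 0.385 FPKM in drought stems, a log2 fold change of 6.78 (q = 0.0202 in the authors' deposited table). Its watered day 9 values were 10.6 FPKM in crowns and 0.354 FPKM in stems.

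For Sevir.5G084900 (chromosome 5, 6719772 to 6720893), the drought crown held 97.9 FPKM and the drought stem 0.435 FPKM, a log2 fold change of 7.81. Its call was the weakest of the 8 (q = 0.0453 in the authors' deposited table), and the watered crown of day 9 held 12.4 FPKM while the watered stem was listed at 0. Sevir.3G172400 (chromosome 3, 12302666 to 12303817) held 90.5 FPKM in drought crowns and 0.895 FPKM in drought stems, a log2 fold change of 6.66. Sevir.6G185400 (chromosome 6, 29679967 to 29681698) held 63.6 and 0.597 FPKM in the same groups, and Sevir.8G222900 (chromosome 8, 36185540 to 36187342) held 62.0 FPKM in drought crowns and 0.314 FPKM in drought stems. At an adjusted p under 0.01, 4 of the 8 genes kept their call.

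The 8 smallest log2 fold changes under the same rule, which again took only genes above 0 FPKM in both groups, ran from -4.71 to -2.99, with 0.976 to 16.5 FPKM in drought crowns, against 14.3 to 333 FPKM in drought stems. In the other 3 pairs of crown and stem the crown was again the lower member for all 8. Of these genes, 6 had their highest value of the 8 groups in the watered stem of day 6, not in the drought stem of day 9.

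Sevir.6G180400 (chromosome 6, 29189839 to 29190478) had the smallest value, at 12.8 FPKM in drought crowns and 333 FPKM in drought stems (log2 fold change -4.71, q = 0.00091 in the authors' deposited table). At day 6 under drought it stood at 62.0 FPKM in crowns and 793 FPKM in stems. The gap was there at both ages, at a lower level in both tissues at day 9. Sevir.2G442800 (chromosome 2, 46869613 to 46870812) had a like pattern, with 2.66 FPKM in drought crowns and 33.3 FPKM in drought stems at day 9, and 8.52 and 86.5 FPKM in those tissues at day 6.

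In 2 of the 8 the watered pair of day 9 did not pass the test. Sevir.1G105700 (chromosome 1, 8960275 to 8963942) stood at 0.976 FPKM in drought crowns and 15.2 FPKM in drought stems, a log2 fold change of -3.96 (q = 0.00091 in the authors' deposited table), while watered plants held 5.79 FPKM in crowns and 11.1 FPKM in stems. Sevir.7G283500 (chromosome 7, 31279233 to 31280395) stood at 1.91 FPKM in drought crowns and 15.2 FPKM in drought stems, and at 15.3 FPKM in watered crowns and 28.7 FPKM in watered stems. In both genes the watered crown held more than the drought crown. Whether the region difference depended on water supply was not tested, since that needs library values.

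In 3 others the watered pair of day 9 was called as well. Sevir.1G034500 (chromosome 1, 3117474 to 3119390) stood at 2.04 FPKM in drought crowns and 22.0 FPKM in drought stems, and at 2.17 FPKM in watered crowns and 21.1 FPKM in watered stems. Sevir.7G198000 (chromosome 7, 25343350 to 25344472) stood at 1.69 FPKM in drought crowns and 15.1 FPKM in drought stems, and at 3.07 FPKM in watered crowns and 18.1 FPKM in watered stems. Sevir.5G396700 (chromosome 5, 40969467 to 40970104) stood at 1.81 FPKM in drought crowns and 14.3 FPKM in drought stems, and at 3.23 FPKM in watered crowns and 19.2 FPKM in watered stems. For Sevir.5G396700 the drought pair of day 6 was not called, with 11.0 FPKM in crowns and 14.5 FPKM in stems (q = 0.681 in the authors' deposited table). The eighth gene, Sevir.9G291600, belongs to a group of adjacent genes described further on.

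**Figure D1:**
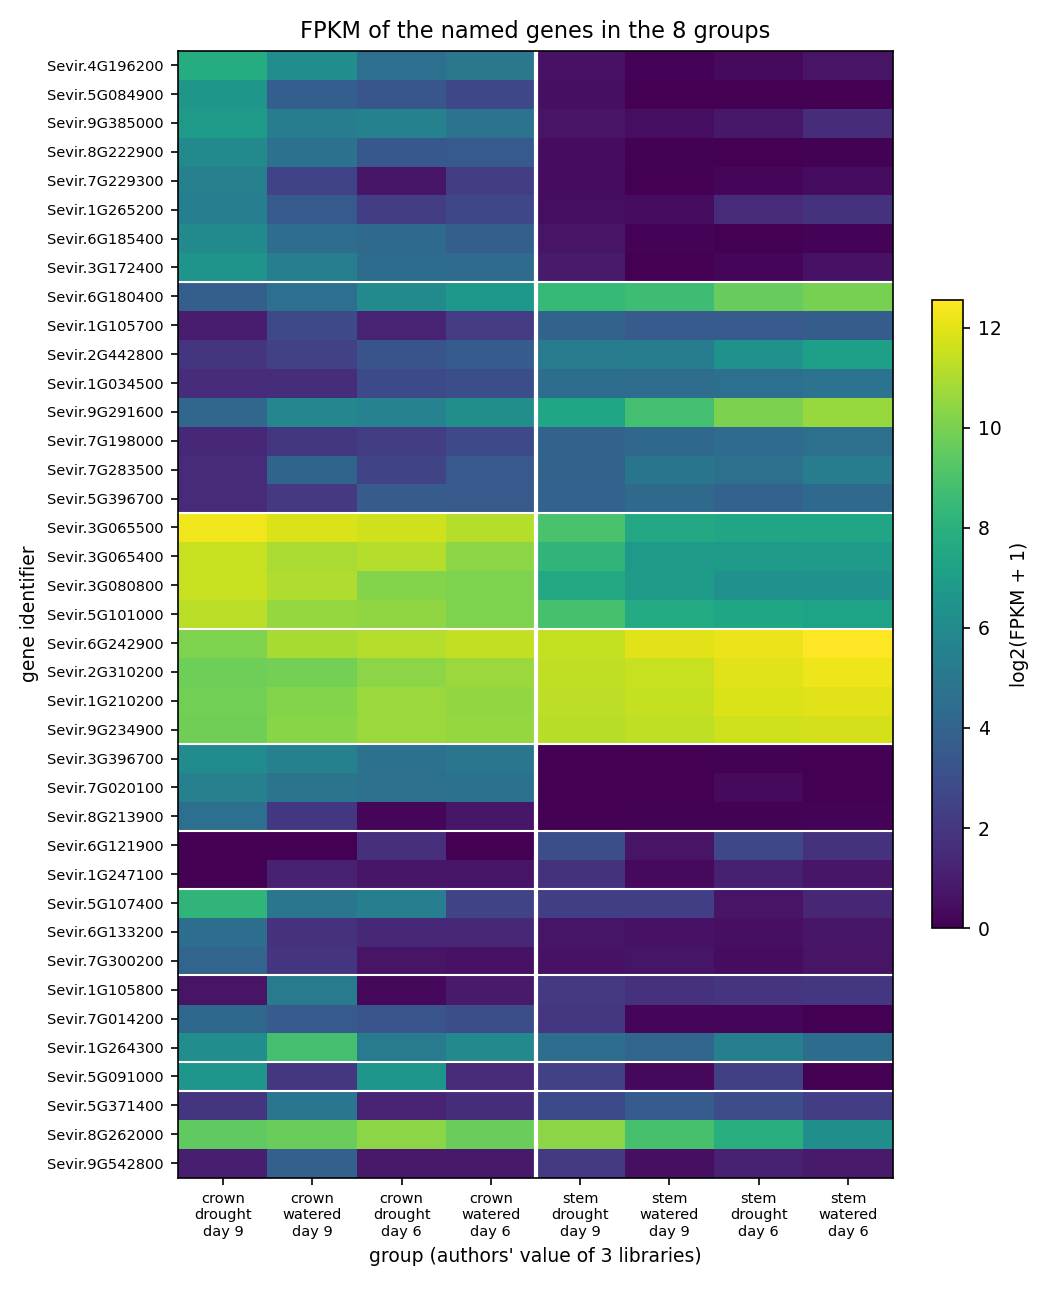
Each row is a gene named by the rule and each column a group, crowns left of stems; the colour is log2(FPKM + 1) of the authors' group value, and white lines part the rules. The top 8 rows are brightest in the drought day 9 crown and dark in the 4 stem columns, and in the next 8 rows each stem column is brighter than the crown column of the same treatment and day.

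Over the whole table, 2285 genes were called higher in drought crowns, which is 11.6% of the genes listed, and 1307 were called lower, which is 6.64%. Together 3592 genes, or 18.3%, differed between the regions, and 63.6% of them were higher in the crown. The typical gene did not favour either region, with a median log2 fold change of 0.044 over genes above 0 FPKM in both groups. Called genes were further apart on the crown side, with a median log2 fold change of 1.74 among higher and -1.27 among lower genes above 0 FPKM in both groups. A minimum of 2-fold left 2078 higher genes (10.6%) and 1027 lower genes (5.22%). Both counts include called genes at 0 FPKM in 1 region, 95 higher and 2 lower. Leaving those out, 565 called genes were higher and 162 lower by 4-fold to 8-fold, 207 higher and 14 lower by 8-fold to 16-fold, and 82 higher and 3 lower by 16-fold or more.

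**Figure D2:**
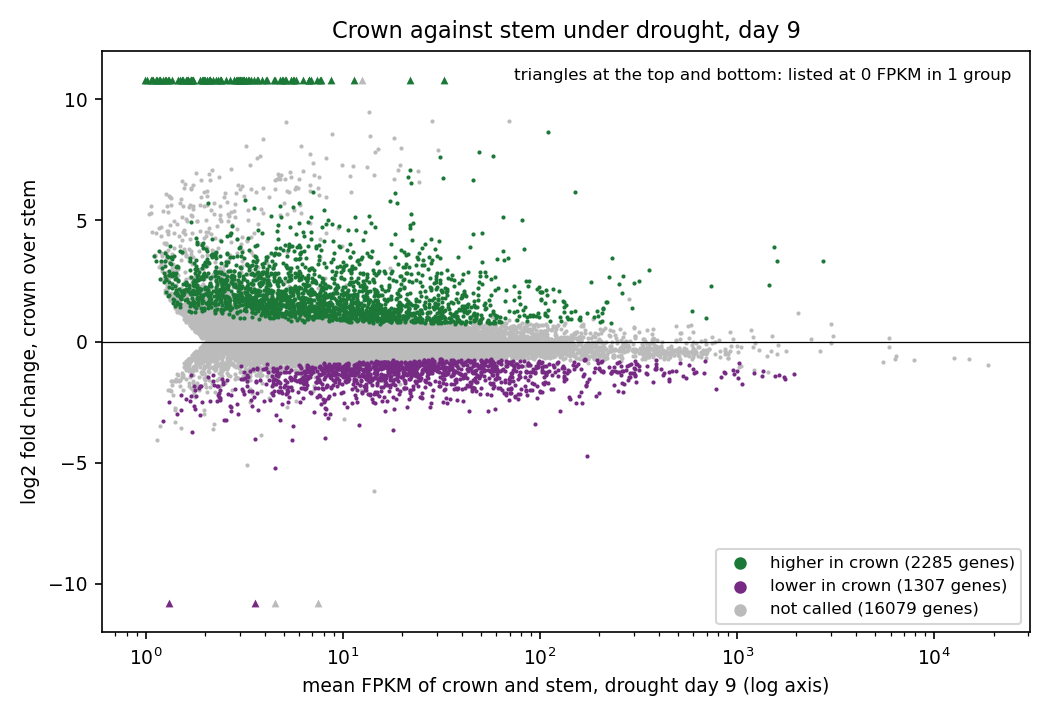
Each point is a gene of the drought day 9 table, with its mean FPKM of crown and stem on a log axis and its log2 fold change, crown over stem, on the vertical axis; triangles at the top and bottom mark genes listed at 0 in 1 group. The 2285 genes called higher in the crown reach farther from 0 than the 1307 called lower, and many uncalled genes lie above a log2 fold change of 4.

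The 2 directions drew on genes of different abundance. Genes called higher in the crown had a median of 11.1 FPKM in drought crowns and 2.87 FPKM in drought stems. Genes called lower had a median of 12.1 FPKM in drought crowns and 29.3 FPKM in drought stems. Over all listed genes the medians were 11.6 FPKM in drought crowns and 10.9 FPKM in drought stems. Crown-higher genes were thus close to the median gene in the crown and well under it in the stem, whereas crown-lower genes were close to the median gene in the crown and well above it in the stem.

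Split into quartiles by the mean FPKM of both groups, the share of genes higher in the crown was 17.4% in the lowest quartile, 13.0% in the second, 8.75% in the third and 7.34% in the highest. The share lower in the crown was 2.44%, 5.14%, 7.38% and 11.6% in the same order. The crown held 87.7% of the calls in the lowest quartile and 38.7% in the highest. The lowest value of a listed gene in its higher group was 1.97 FPKM, so a gene of the lowest quartile can be listed through the group in which it is high alone. The excess of crown-higher genes did not extend to the 2 upper quartiles together, in which 791 genes were higher and 934 lower.

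**Figure D3:**
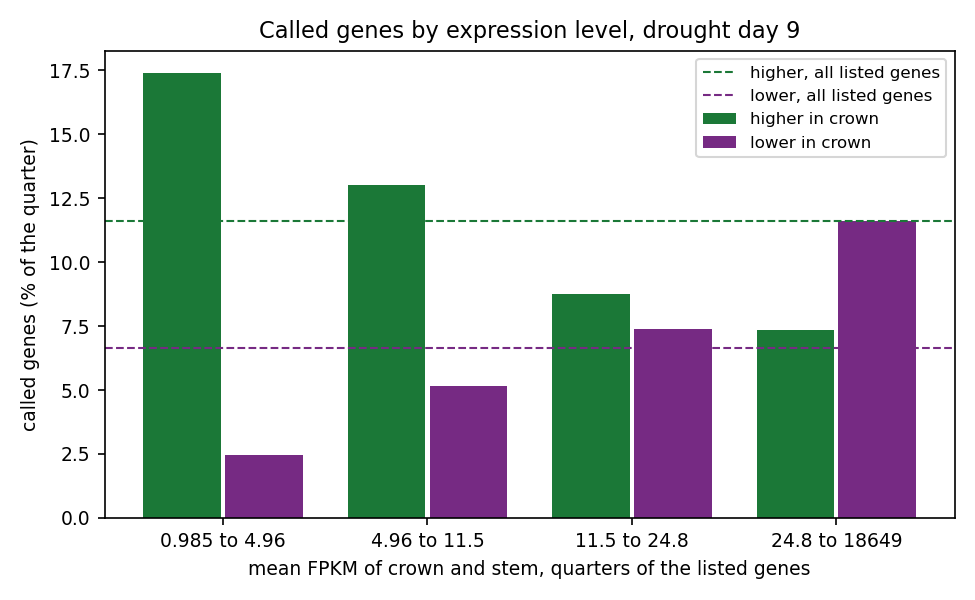
Bars give the percentage of genes called higher (green) and lower (purple) in drought crowns in each quartile of mean FPKM, and dashed lines give the percentage over all listed genes. The green bars go down along the quartiles, reaching 7.34% in the highest, and the purple bars go up, reaching 11.6%.

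The most abundant crown-higher transcripts lay between 2408 and 4932 FPKM in drought crowns. Sevir.3G065500 (chromosome 3, 4248039 to 4248707) stood at 4932 FPKM in drought crowns and 497 FPKM in drought stems, a log2 fold change of 3.31 (q = 0.00091 in the authors' deposited table). Its neighbour Sevir.3G065400 (chromosome 3, 4247414 to 4248039), whose position entry touches it, stood at 2891 FPKM in drought crowns and 292 FPKM in drought stems, also a log2 fold change of 3.31. Whether this pair shares reads could not be checked without sequences. Sevir.3G080800 (chromosome 3, 5212287 to 5213053) stood at 2873 FPKM in drought crowns and 191 FPKM in drought stems. Sevir.5G101000 (chromosome 5, 8085755 to 8087314) stood at 2408 FPKM in drought crowns and 481 FPKM in drought stems. All 4 were called higher in the crown in the other 3 pairs too, and all 4 were highest of the 8 groups in the drought day 9 crown, which their choice by crown level favours. The drought stem values of all 4 also exceeded the watered stem values, which were 189 FPKM for Sevir.3G065500 and 201 FPKM for Sevir.5G101000.

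The most abundant genes on the stem side differed less. Sevir.6G242900 (chromosome 6, 34235880 to 34236015) stood at 1101 FPKM in drought crowns and 2794 FPKM in drought stems, a log2 fold change of -1.34 (q = 0.00091 in the authors' deposited table). Sevir.2G310200 (chromosome 2, 38142447 to 38143509) stood at 889 FPKM in drought crowns and 2622 FPKM in drought stems. Sevir.1G210200 (chromosome 1, 28031029 to 28032111) held 924 FPKM in drought crowns and 2541 FPKM in drought stems, and Sevir.9G234900 (chromosome 9, 17943923 to 17944213) held 915 FPKM in drought crowns and 2354 FPKM in drought stems. The log2 fold changes of these 4 lay between -1.56 and -1.34. All 4 were highest of the 8 groups in the watered stem of day 6, and Sevir.1G210200 alone among them was not called in watered plants of day 9 (q = 0.0674 in the authors' deposited table).

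Some genes were listed at 0 in 1 region. Of 99 genes listed at 0 in drought stems, 95 were called. The 3 with the highest crown values were Sevir.3G396700 (chromosome 3, 47285771 to 47287168) at 65.4 FPKM, Sevir.7G020100 (chromosome 7, 7086125 to 7086659) at 43.9 FPKM and Sevir.8G213900 (chromosome 8, 35043689 to 35045306) at 22.7 FPKM in drought crowns. Sevir.3G396700 and Sevir.7G020100 were also listed at 0 in watered stems of both days. Sevir.8G213900 was not, and it held 3.14 FPKM in watered crowns of day 9 and 0.174 FPKM in drought crowns of day 6. In the other direction 4 genes had 0 FPKM in drought crowns and 2 of them were called, Sevir.6G121900 (chromosome 6, 19591184 to 19591869) at 7.16 FPKM and Sevir.1G247100 (chromosome 1, 31346507 to 31346953) at 2.63 FPKM in drought stems. No fold change is given for genes listed at 0.

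How often a difference was called depended on more than its size. Of the genes above 0 FPKM in both groups and higher in the crown, 67.3% were called between 2-fold and 4-fold, 82.6% between 4-fold and 8-fold, 74.5% between 8-fold and 16-fold and 30.4% (82 of 270) from 16-fold upwards. Genes listed at 0 in the stem were called in 96.0% of cases. Among the genes at least 16-fold higher, the called ones had a median of 15.8 FPKM in drought crowns and 0.520 FPKM in drought stems, and the uncalled ones 5.14 FPKM in drought crowns and 0.113 FPKM in drought stems. An uncalled gene of this kind, chosen after its values were seen, was Sevir.8G196200 (chromosome 8, 33202186 to 33203754), with 56.2 FPKM in drought crowns and 0.101 FPKM in drought stems (q = 0.531 in the authors' deposited table). In watered plants of day 9 the same gene stood at 37.6 FPKM in crowns and was listed at 0 in stems, and there it was called (q = 0.00091 in the authors' deposited table). Whether such genes differ between the regions library by library cannot be told from group values.

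The called genes were then followed through the 6 groups outside the comparison, whose p-values entered the choice only through the joint adjustment. The 2285 crown-higher genes had medians of 10.3 FPKM in watered crowns and 3.43 FPKM in watered stems of day 9, close to their drought medians. At day 6 their medians were 5.04 FPKM in drought crowns and 2.51 FPKM in drought stems, and 5.54 FPKM in watered crowns and 3.08 FPKM in watered stems. Among those 6 groups, the watered day 9 crown held the highest value for 1764 of the genes, or 77.2%. The share over all listed genes was not computed. Over all listed genes the median was 11.6 FPKM in watered crowns of day 9. At day 6 it was 10.9 FPKM in drought crowns and 11.0 FPKM in watered crowns. By median, the crown-higher set was thus higher in day 9 crowns than in the other groups, under either water supply.

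The 1307 crown-lower genes had a different course. Their medians were 16.0 FPKM in watered crowns and 34.8 FPKM in watered stems of day 9. At day 6 the medians were 19.4 FPKM in drought crowns and 40.1 FPKM in drought stems, and 22.6 FPKM in watered crowns and 43.7 FPKM in watered stems. Of the 6 groups, the watered stem of day 6 held the highest value for 824 genes, or 63.0%. These genes were higher in stems than in crowns by median at both ages. Their median was lower at day 9 than at day 6 in each region and water supply. No share over all listed genes was computed to set beside the 63.0%.

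Watered plants of day 9 show how much of the region difference was shared with drought. The 2 tables have no library in common, and per the labels both kinds of sample were part of each biological repeat. In watered plants 2337 genes (12.0%) were called higher and 1341 (6.88%) lower in the crown. With a 2-fold minimum the shares were 10.5% and 5.58%. Crown-higher calls common to both numbered 1472, which is 64.4% of the drought list and 63.0% of the watered list. Crown-lower calls common to both numbered 958, which is 73.3% of the drought list and 71.4% of the watered list. Of the 2285 crown-higher genes under drought, 170 were not listed in the watered table.

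Genes called under drought alone mostly leaned the same way in watered plants. Of 643 crown-higher genes that were listed but not called in watered plants, 629 had the crown above the stem there too, with median log2 fold changes of 1.47 (drought) and 0.81 (watered). Of 335 such crown-lower genes, 319 kept their direction, with medians of -1.03 under drought and -0.62 in watered plants. Selection by the drought call favours larger drought values, and the genes called in watered plants alone showed the reverse order, 608 crown-higher genes having a median of 0.76 under drought and 1.32 in watered plants. Across 18597 genes above 0 FPKM in all 4 groups, Pearson's r between the drought and the watered log2 fold change was 0.881 as a description, and 94.8% of genes were within 2-fold of each other in the size of the region difference.

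**Figure D4:**
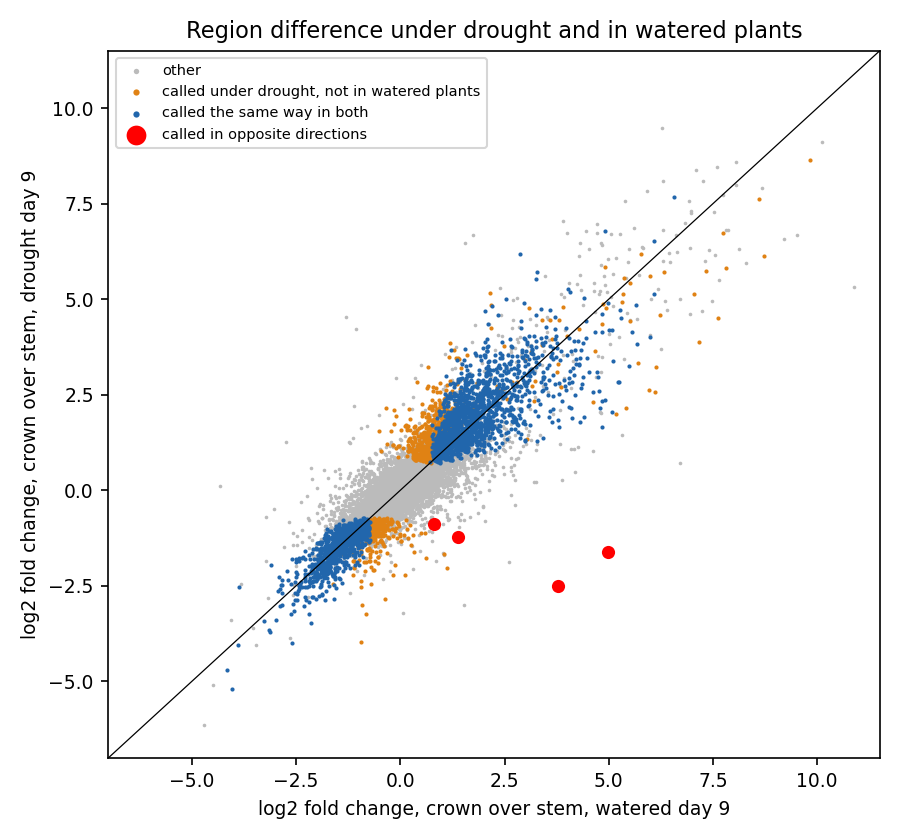
Each point is a gene above 0 FPKM in all 4 day 9 groups, with its log2 fold change, crown over stem, under drought on the vertical and in watered plants on the horizontal axis; the line marks equal values. Most points lie along the line, genes called under drought only (orange) flank the shared calls (blue), and the 4 genes called in opposite directions (red) lie below 0 under drought. Genes called in watered plants only have no colour of their own and are grey, like the uncalled genes.

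Of the genes the rule considered, the crown excess exceeded that of watered plants by most for Sevir.5G107400 (chromosome 5, 8589094 to 8589929). It stood at 295 FPKM in drought crowns and 4.08 FPKM in drought stems, against 29.8 FPKM in watered crowns and 4.07 FPKM in watered stems. Its log2 fold change was 6.18 under drought and 2.87 in watered plants, a difference of 3.30, and both were called (q = 0.00091 in each of the authors' deposited tables). The stem values were alike under both water supplies, so the gap between the tables lay in the crown. Sevir.6G133200 (chromosome 6, 22769177 to 22770428) stood at 22.4 FPKM in drought crowns and 0.630 FPKM in drought stems, against 2.45 FPKM in watered crowns and 0.554 FPKM in watered stems. Sevir.7G300200 (chromosome 7, 32420868 to 32422060) stood at 15.8 FPKM in drought crowns and 0.549 FPKM in drought stems, against 2.77 FPKM in watered crowns and 0.615 FPKM in watered stems. These 2 genes were not called in watered plants.

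No gene was called higher in drought crowns and lower in watered crowns, and 4 genes were called lower in drought crowns and higher in watered crowns, each against its own stem. Sevir.1G105800 (chromosome 1, 9010739 to 9015624) stood at 0.578 FPKM in drought crowns and 3.27 FPKM in drought stems, against 34.1 FPKM in watered crowns and 2.48 FPKM in watered stems. Its log2 fold changes were -2.50 under drought and 3.78 in watered plants (q = 0.0366 and q = 0.00091 in the authors' deposited tables). Its identifier follows that of Sevir.1G105700, which also had less in drought than in watered crowns. Sevir.9G542800 (chromosome 9, 53335846 to 53337900) stood at 1.07 FPKM in drought crowns and 3.31 FPKM in drought stems, against 13.3 FPKM in watered crowns and 0.421 FPKM in watered stems. Sevir.5G371400 (chromosome 5, 39282025 to 39284550) stood at 2.65 FPKM in drought crowns and 6.17 FPKM in drought stems, against 29.6 FPKM in watered crowns and 11.3 FPKM in watered stems.

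In these 3 genes the watered crown of day 9 held the highest value of the 8 groups. The fourth, Sevir.8G262000 (chromosome 8, 39807865 to 39808225), was an abundant transcript whose stem values were further apart than its crown values. It stood at 719 FPKM in drought crowns and 1318 FPKM in drought stems, against 825 FPKM in watered crowns and 472 FPKM in watered stems. The drought q of the 4 genes lay between 0.0311 and 0.0366 in the authors' deposited table, and none passed an adjusted p of 0.01 there. For Sevir.8G262000 the watered call was weak as well (q = 0.0469 in the authors' deposited table). Its log2 fold changes, -0.87 under drought and 0.81 in watered plants, were both under 2-fold. The difference between drought and watered plants was not tested.

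By log2 fold change, the crown excess of 2 further genes was larger in watered plants than under drought. Sevir.1G264300 (chromosome 1, 32706781 to 32707949) stood at 70.0 FPKM in drought crowns and 22.1 FPKM in drought stems, a log2 fold change of 1.66. Watered crowns held 462 FPKM of it and watered stems 16.2 FPKM, which is 4.84 on the same scale. Sevir.7G014200 (chromosome 7, 4624106 to 4625455) stood at 17.4 FPKM in drought crowns and 2.90 FPKM in drought stems, against 11.3 FPKM in watered crowns and 0.164 FPKM in watered stems. The watered pair of the second gene was not called (q = 0.525 in the authors' deposited table). Its larger ratio there rests on the stem value of 0.164 FPKM, and in FPKM its crown excess was larger under drought. As a ratio, the gap between water supplies was wider in the crown for the first gene and wider in the stem for the second.

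Under drought at day 6 the balance of calls was the other way round, with 1191 genes (6.44%) higher and 1986 (10.7%) lower in the crown. Crown-higher calls shared between the ages numbered 629, which is 27.5% of the day 9 list and 52.8% of the day 6 list. Of the day 9 list, 570 crown-higher genes were not listed in the drought table of day 6. Crown-lower calls shared between the ages numbered 867, which is 66.3% of the day 9 list and 43.7% of the day 6 list. For 1054 crown-higher genes that were listed but not called at day 6, the median log2 fold change was 1.45 at day 9 and 0.46 at day 6. Of all 2285 crown-higher genes, 400 (17.5%) were called in the same direction in each of the other 3 pairs of crown and stem, and of the 1307 crown-lower genes 747 (57.2%) were. A gene not listed in a pair could not be called there. At day 6 this held for 570 (drought) and 467 (watered) crown-higher genes, against 7 and 10 crown-lower genes. The shares over all listed genes were not computed. In the watered plants of day 6, for which 1546 genes (8.30%) were called higher and 2283 (12.3%) lower, 564 of the crown-higher and 841 of the crown-lower calls were shared.

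Calls in opposite directions at the 2 ages were few. Of genes higher in drought crowns at day 9, 32 were called lower there at day 6, and 25 went the other way. The genes with the largest such changes, chosen after their values were seen, included Sevir.3G194800 (chromosome 3, 14194996 to 14196543). It stood at 20.6 FPKM in drought crowns and 3.35 FPKM in drought stems at day 9, and at 1.17 and 8.18 FPKM in those tissues at day 6. Sevir.8G210100 (chromosome 8, 34499523 to 34501272) stood at 30.6 FPKM in drought crowns and 142 FPKM in drought stems at day 9, and at 30.5 and 2.15 FPKM in those tissues at day 6. The crown value of the second gene was nearly the same on both days, and its stem value differed.

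Along the genome, crown-higher calls were most frequent on chromosome 8. There 202 of 1097 listed genes were higher in drought crowns, or 18.4%, against 11.6% over the whole table, and the other 8 chromosomes ranged from 9.91% on chromosome 6 to 13.0% on chromosome 5. Crown-lower calls made up 5.56% of chromosome 8, the lowest share of the 9 chromosomes. Chromosome 8 exceeded the other chromosomes in each quartile of expression level, with 22.6% against 12.3% in the second quartile and 8.06% against 7.30% in the highest. In watered plants of day 9 its crown-higher share was 16.5%, against 12.0% over that table, and under drought at day 6 it was 9.10% against 6.44%. Shares of genes on a chromosome are given as a description, since genes are not replicates.

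Called genes were more frequent among short genes. In the quartile of genes with the shortest position entries, up to 2149 bases, 19.0% were higher and 8.66% lower in drought crowns, and in the quartile with the longest, from 5108 bases, 7.44% were higher and 4.33% lower. In the highest quartile of expression 11.2% of genes shorter than the median and 4.38% of longer genes were crown-higher, whereas in the lowest the shares were 18.7% and 19.5%. Position entries include introns, and the length of the transcripts was not used.

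Some called genes lay next to each other among the listed genes, with any unlisted gene between them passed over. Runs of at least 3 adjacent listed genes called in the same direction numbered 75 for crown-higher calls, with 257 genes or 11.2% of these calls, and 8 for crown-lower calls, with 25 genes or 1.91%. Crown-higher calls were also the more frequent kind, at 11.6% against 6.64% of listed genes, and how many runs these rates alone would give was not computed. The longest was a run of 9 genes on chromosome 5 between 7251857 and 7320228 (Sevir.5G090200 to Sevir.5G091200), with log2 fold changes from 1.28 to 4.46. Its rule-named gene was Sevir.5G091000 (chromosome 5, 7307464 to 7307917), with 97.0 FPKM in drought crowns and 4.39 FPKM in drought stems at day 9 (q = 0.00091 in the authors' deposited table). The most abundant gene of the run was Sevir.5G091200, at 426 FPKM in drought crowns and 38.7 FPKM in drought stems.

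Drought crowns held more than watered crowns in 9 of the 9 genes, and drought stems more than watered stems in 7. The gap between water supplies varied along the run. Sevir.5G090900 stood at 154 FPKM in drought crowns and 11.0 FPKM in drought stems, against 13.3 FPKM in watered crowns and 1.24 FPKM in watered stems. The watered crown therefore held about as much of this gene as the drought stem did. In Sevir.5G090800, the gene next to it, the values were 39.7 FPKM in drought crowns and 9.52 FPKM in drought stems, against 31.4 FPKM in watered crowns and 11.9 FPKM in watered stems. The crown was higher in all 9 genes under both water supplies, and 6 of the 7 genes listed in the watered table were called there. All 7 genes listed at day 6 under drought were called higher in the crown then too. Adjacent genes can be copies of each other that share reads, which could not be checked because the files hold no sequences.

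**Figure D5:**
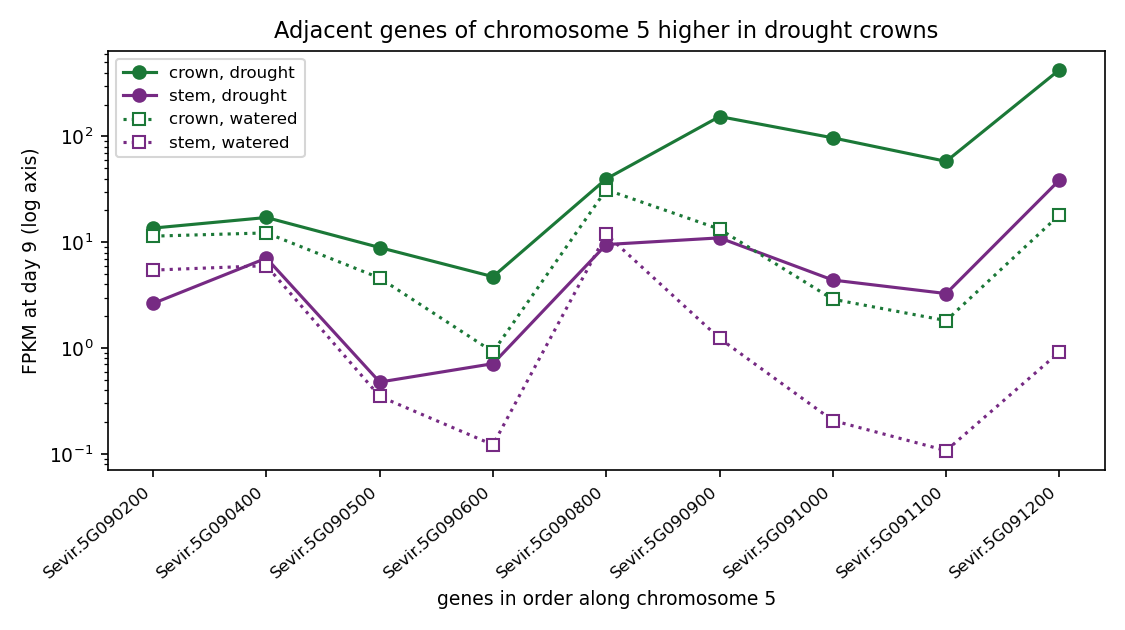
The 9 adjacent listed genes of the chromosome 5 run are in order along the horizontal axis and FPKM at day 9 is on a log axis. Green is crown, purple is stem, filled circles are drought and open squares watered. The solid green line lies above the solid purple line at every gene, and the dotted lines of watered plants lie farthest below the solid ones at Sevir.5G090600 and the last 4 genes, of which Sevir.5G091200 reaches 426 FPKM in drought crowns.

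The longest crown-lower run held 4 genes on chromosome 9 between 30784764 and 30826319 (Sevir.9G291400 to Sevir.9G291700), with log2 fold changes from -3.39 to -1.95. Sevir.9G291600 (chromosome 9, 30818171 to 30819534), also among the 8 genes named for the smallest log2 fold changes, stood at 16.5 FPKM in drought crowns and 173 FPKM in drought stems at day 9 (q = 0.00091 in the authors' deposited table). At day 6 it stood at 46.6 FPKM in drought crowns and 1084 FPKM in drought stems. Sevir.9G291400 stood at 66.5 FPKM in drought crowns and 319 FPKM in drought stems, and Sevir.9G291700 at 11.1 and 55.3 FPKM in those tissues. All 4 genes were called lower in the crown in watered plants of day 9 and under drought at day 6 as well, and the drought stem of day 9 held less of each than the watered stem of that day.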

How the data were processed

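Gene expression was measured by RNA-seq in 24 libraries of Setaria viridis in 8 groups of 3. Per the submitters' processing notes, FastQC, cutadapt and Cuffdiff were used, with no versions given. For the aligner and the build the answer is the same: not given in the sources used here. Per the file headers, each of 28 deposited tables compares 2 groups and holds for each gene the authors' FPKM of both groups, the deposited log2 fold change, p-value and q-value. Checks showed that a group had the same FPKM in all its tables (0 differing values), that the log2 fold changes equalled the FPKM ratio within 4.8e-05, and that the deposited q-values matched a joint Benjamini-Hochberg adjustment of the 531416 p-values of all tables within 5.3e-07, so they do not limit false calls within 1 table. Replicates cannot be compared from group values, and the p-values are the authors' own, over 3 biological repeats.

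Genes with q under 0.05 were counted by direction with Python 3.11.15 and pandas 2.3.3, and the counting steps were checked on simulated data. Named genes followed a rule: the 8 largest and 8 smallest log2 fold changes of called genes expressed in both regions whose higher value reached 13.4 FPKM (the median of that value over listed genes), the most abundant called genes (4 in each direction), called genes at 0 FPKM in 1 group (up to 3 in each direction), the largest differences between drought and watered plants (3 in each direction) of called genes above 0 FPKM in all 4 day 9 groups with at least 1 of them at 13.4 FPKM, a floor that leaves out Sevir.9G542800 with its difference of -6.61, the leading gene of the longest run in each direction, and genes with opposite calls. The comparison, the rule and the gene lists were chosen with earlier results of these data known. Lists of root, leaf, cell wall, drought, auxin, cytokinin and cell cycle genes had 0 members, since no identifier is annotated, and gave no result. Of the listed genes, 1390 have a position entry that another gene shares, and 0 of the named genes do. Coordinates are those of the files.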

Additional observations from a re-analysis of the deposited data

How the results depend on the processing

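For drought day 9, an adjusted p under 0.01 left 1421 genes higher and 808 lower in the crown, and restricting to genes whose mean FPKM reached the median gave 791 higher genes, which made crown-higher genes 45.9% of the calls in place of 63.6%. The same settings gave 1393 higher, 857 lower and 886 higher genes for watered day 9, 687 higher, 1305 lower and 423 higher genes for drought day 6, and, for watered day 6, 792 and 650 higher genes. Both settings count fewer genes by construction. The share of crown-higher drought calls also called in watered plants was 58.3% at an adjusted p under 0.01 and 61.2% with a 2-fold minimum. Adjustment within each table alone, a 2-fold minimum, a minimum of 5 FPKM and leaving out genes at 0 FPKM (chosen after seeing the data) changed no count of these 4 comparisons by over 1.5 times. Centring on the median gene leaves the deposited q-values as they are and could change no call. Of 39 named genes, 39 kept their call when adjusted within the table alone and 28 at an adjusted p under 0.01. Of the 34 named genes above 0 FPKM in both groups, a pseudocount of 1 FPKM changed the crown to stem ratio of 12 by over 1.5 times, giving a log2 fold change of 7.16 for Sevir.4G196200. It cannot turn a direction. Leaving out replicates was not run, since it needs library values. No paired analysis was possible because the tables hold 1 value per group, not per repeat. Depth is unknown, so how far it limits low genes cannot be given.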

Other observations

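Beside the run on chromosome 5 already described, 2 runs of 6 adjacent listed genes were higher in drought crowns, chosen after their values were seen. On chromosome 5 between 24761280 and 24944321 (Sevir.5G204300 to Sevir.5G205100) the log2 fold changes ran from 1.35 to 2.83. Sevir.5G204700 stood at 52.7 FPKM in drought crowns and 7.42 FPKM in drought stems, against 112 FPKM in watered crowns and 26.9 FPKM in watered stems. All 6 genes of that run were below the watered crown in the drought crown and above the day 6 drought crown, and all 6 were called higher in the crown in watered plants too. On chromosome 8 between 38231889 and 38340189 (Sevir.8G245000 to Sevir.8G245700) the log2 fold changes ran from 1.25 to 1.53. Sevir.8G245700 stood at 34.3 FPKM in drought crowns and 11.9 FPKM in drought stems, against 29.0 FPKM in watered crowns and 11.3 FPKM in watered stems. Of these 6 genes, 6 were higher in the drought than in the watered crown of day 9 and 4 were called in watered plants.

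Large differences without a call were also present on the stem side. Sevir.1G138600 (chromosome 1, 14283141 to 14284098), chosen after its values were seen, stood at 0.400 FPKM in drought crowns and 28.4 FPKM in drought stems, a log2 fold change of -6.15 (q = 0.0783 in the authors' deposited table). In watered plants of day 9 it stood at 1.86 FPKM in crowns and 48.9 FPKM in stems and was called lower in the crown (q = 0.00091 in the authors' deposited table).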
